A study of Mus musculus with 33 samples.

Results

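CD8 T cells sorted from mouse pancreatic tumours were described by which genes they expressed more or less than myeloid cells sorted in the same study. The pooled mean level of each gene over the 12 CD8 libraries was set against the mean of its levels in inflammatory monocytes (IM, 12 libraries) and tumour-associated macrophages (TAM, 9 libraries). Each population was scaled to the same sum of levels, and genes with a scaled level of at least 50 in CD8 were kept. These were 14127 of the 33229 genes with a level above 0 in CD8 (42.5%), and of 37129 genes above 0 in any of the 3 populations. With the same minimum, 13408 genes passed in IM and 13757 in TAM. The ratios describe pooled levels, 1 per population, so they carry no test and no treatment effect. A ratio in bulk RNA cannot tell fewer cells of a type apart from less RNA per cell.

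The cells came from C57BL/6 mice with KCKO tumours, made by injecting 100000 cells of this pancreatic ductal adenocarcinoma line into the tail of the pancreas. CD8 cells were gated as CD45+CD8+, IM as CD45+CD11b+Ly6C+Ly6G-, and TAM as CD45+CD11b+Ly6G-F4/80+ with moderate Ly6C. Each population had 4 groups: SBRT, IL-12, SBRT + IL-12 (here the combination) and unirradiated. SBRT is stereotactic body radiotherapy, a focused high-dose irradiation, and ran over days 6 to 9 after implantation with 4 fractions, each of 6 Gy. IL-12, a cytokine that drives interferon gamma production by T and NK cells, was injected into the tumour on day 10 as microspheres, 2 mg of beads with 0.5 µg of IL-12. Every CD8 and IM group had 3 libraries. Of the TAM groups, IL-12 had 3 libraries and the others 2. The labels give no age or sex of the mice, and do not say which groups received empty microspheres or whether replicate libraries came from separate mice. The deposited p-values thus measure the spread between libraries, which may be technical. No value of a single library was used here because the deposited tables hold pooled levels, so the depth of each library is unknown. Before scaling, the levels summed over all genes to 45891473 in CD8, 47858198 in IM and 47978253 in TAM.

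CD8 T cells recognise peptides on MHC class I molecules through a T cell receptor, which is assembled from rearranged alpha and beta gene segments and signals through the CD3 chains. The CD8 co-receptor binds the same MHC molecule and brings the kinase Lck to the receptor. Activated cells kill by releasing perforin and granzymes and secrete interferon gamma, and cells that meet antigen for long in a tumour keep inhibitory receptors such as PD-1 on their surface.

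All 5 markers given for these cells stood far above their levels in both myeloid populations. The gate itself selected for CD8, so the ratios of the CD8 chains are no independent check of the label. Cd8b1, the CD8 beta chain, had a level of 44854 in CD8, against 206 in IM and 216 in TAM, a log2 ratio of 7.73. Cd8a, the CD8 alpha chain, had 44253 in CD8, against 215 in IM and 229 in TAM (log2 ratio 7.64). Cd3e, a CD3 chain, had 31335 in CD8, against 186 in IM and 180 in TAM (log2 ratio 7.42). The IM and TAM levels of these 3 genes were close to each other and under 1% of the CD8 level. Pdcd1, which encodes PD-1, had 48850 in CD8, against 260 in IM and 263 in TAM (log2 ratio 7.54). Gzmb, the gene of granzyme B, had 92050 in CD8, against 1330 in IM and 482 in TAM (log2 ratio 6.67). Gzmb was thus the marker whose IM and TAM levels differed most. Approximate standard errors of these 5 ratios, derived from the deposited fold changes and Wald statistics, lay between 0.069 and 0.085. Per kilobase of annotated exon, the CD8 levels were 64102 for Gzmb, 30246 for Cd8b1, 25311 for Pdcd1, 12168 for Cd8a and 7680 for Cd3e.

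**Figure D1:**
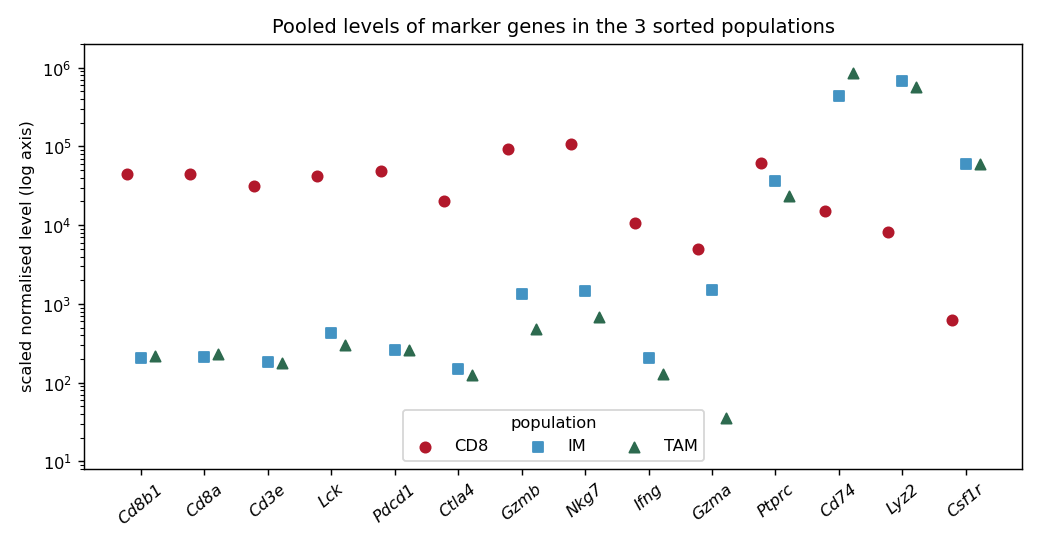
Pooled scaled levels (log axis) of 14 genes in CD8, IM and TAM, 1 point per population. The T cell genes on the left sit highest in CD8, Ptprc (CD45) is of like size in all 3 populations, and Cd74, Lyz2 and Csf1r on the right sit lowest in CD8.

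The promoters of 4 of these markers are shown because these genes mark the sorted cells and can be searched for motifs of T cell transcription factors. Each covers 250 bases before to 50 after the gene's start in RefSeq, build GRCm38.p6, and is written on the gene's strand. They lie at chr6:71373177-71373476 (+) for Cd8a, chr9:45009562-45009861 (-) for Cd3e, chr14:56262285-56262584 (-) for Gzmb and chr1:94052504-94052803 (-) for Pdcd1. Capitals mark exact matches, on either strand, to short motifs. They were the Runx motif TGTGGT, its variant TGCGGT, the ETS family motif GGAAGT, the TCF and LEF motif CTTTGA and the T-box motif AGGTGT. The PU.1-like motif GAGGAAGT (which holds the ETS family motif) and the TATA box TATAAA were counted only over gene sets, 7 motifs in all.
Cd8a: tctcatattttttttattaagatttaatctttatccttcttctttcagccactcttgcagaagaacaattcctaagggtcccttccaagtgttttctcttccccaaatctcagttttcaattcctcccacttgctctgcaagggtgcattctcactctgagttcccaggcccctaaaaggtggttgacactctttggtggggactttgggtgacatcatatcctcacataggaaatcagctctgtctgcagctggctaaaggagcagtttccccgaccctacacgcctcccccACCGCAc
Cd3e: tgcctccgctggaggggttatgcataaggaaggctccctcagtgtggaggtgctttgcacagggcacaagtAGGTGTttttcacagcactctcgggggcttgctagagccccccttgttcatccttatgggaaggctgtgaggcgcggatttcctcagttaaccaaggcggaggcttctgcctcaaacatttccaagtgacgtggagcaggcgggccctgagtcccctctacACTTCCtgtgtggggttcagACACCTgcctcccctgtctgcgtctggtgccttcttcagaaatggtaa
Gzmb: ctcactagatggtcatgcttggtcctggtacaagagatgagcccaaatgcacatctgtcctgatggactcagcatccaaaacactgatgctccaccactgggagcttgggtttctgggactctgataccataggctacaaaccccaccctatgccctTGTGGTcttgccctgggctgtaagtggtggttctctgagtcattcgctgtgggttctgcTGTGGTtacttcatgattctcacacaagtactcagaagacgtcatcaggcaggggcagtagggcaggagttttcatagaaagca
Pdcd1: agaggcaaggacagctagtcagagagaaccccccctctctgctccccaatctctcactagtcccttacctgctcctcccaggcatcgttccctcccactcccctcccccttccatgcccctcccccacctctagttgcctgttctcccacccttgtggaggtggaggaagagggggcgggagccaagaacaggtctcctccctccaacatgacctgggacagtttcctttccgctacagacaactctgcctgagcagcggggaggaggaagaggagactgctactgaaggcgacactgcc
Gzmb held the Runx motif TGTGGT at -93 and -34, counted from the start of the gene. Cd8a held TGCGGT on the other strand at 44, Cd3e held 1 ETS and 2 T-box matches, and Pdcd1 held 0 matches to the motifs marked.

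Over all genes kept, most levels were of like size in CD8 and myeloid cells. The median log2 ratio was 0.68, with quartiles of -0.02 and 1.31, and the range ran from -6.88 to 10.54. At least 4-fold higher in CD8 (a log2 ratio of 2 or more, below called CD8-high) were 2091 genes (14.8%). At least 4-fold lower (CD8-low) were 853 genes (6.04%), and 11183 lay between. Scaling by the median of gene ratios in place of equal sums moved the ratios down by a median of 0.55 and gave 1570 CD8-high and 1172 CD8-low genes. The ratios in the text are therefore best read against the median of 0.68. CD8-high genes made up 11.6% of the summed level in CD8, against 1.13% in IM and 1.07% in TAM. CD8-low genes made up 1.94% in CD8, against 25.4% in IM and 29.8% in TAM. Of the CD8-high genes 1563 had names of their own, 151 were antigen receptor genes and 377 were clone names, predicted genes or pseudogenes. A log2 ratio of at least 6 was reached by 420 genes, of at least 7 by 203 and of at least 8 by 21. On the low side 85 genes lay at -6 or below and 0 at -7 or below. The genes nearest the level minimum were Tvp23a (50.017), Ddc (50.102) and Etaa1os (50.134) inside it, and Isoc2a (49.956), Acot6 (49.951) and Tnfrsf11a (49.907) outside.

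**Figure D2:**
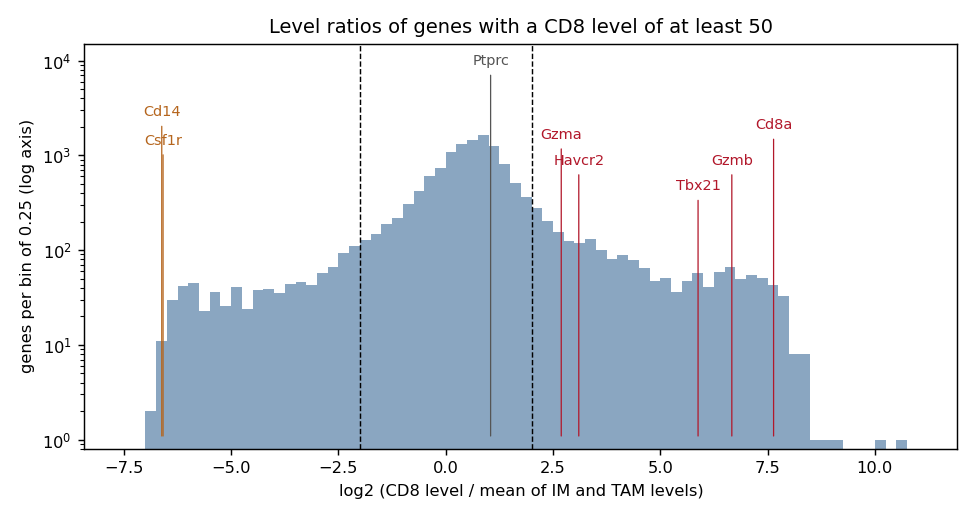
Number of genes (log axis) per bin of 0.25 in the log2 ratio of the CD8 level over the mean of the IM and TAM levels, for 14127 genes, with 8 genes marked and dashed lines at ratios of 2 and -2. The peak lies just above 0, and the T cell genes and the myeloid genes marked lie near opposite ends.

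Genes of the T cell receptor complex lay close together. All 9 co-receptor, CD3 and receptor constant genes were CD8-high, with a median log2 ratio of 7.30 and a range from 6.87 to 7.73. Trbc2, a constant segment of the beta chain, had a level of 45972 in CD8, against 315 in IM and 269 in TAM. Trac, the alpha constant segment, had 34542 in CD8, against 226 in IM and 203 in TAM. Cd247, the signalling zeta chain, had the lowest ratio of the group, with 8832 in CD8, against 96.8 in IM and 54.2 in TAM.

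The kinases and adaptors below the receptor followed closely. Of 23 T cell receptor signalling genes, 22 were CD8-high, with a median log2 ratio of 6.89. The scaffold Lat had the highest ratio of them (7.39), with a level of 20355 in CD8, against 134 in IM and 110 in TAM. Lck had a log2 ratio of 6.87 and the kinase Zap70 7.16. The genes also used by myeloid cells stood lower. Fyn, a Src family kinase, had a ratio of 2.82, and Lcp2 (SLP-76), an adaptor, had -0.09, with 11356 in CD8, against 12930 in IM and 11179 in TAM.

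Of 152 antigen receptor genes and segments kept, of T cell receptors and immunoglobulins together, 151 were CD8-high. The immunoglobulin genes CD8-high were 3 of 4 at the Igh locus, 4 of 4 at Igk and 2 of 2 at Igl. The exception was Ighm (log2 ratio 1.20). At the alpha locus all 97 segments kept were CD8-high, with a median log2 ratio of 7.43. At the beta locus it was all 38, with a median of 7.17. Summed levels were 55241 in CD8, against 353 in IM and 326 in TAM for alpha, and 95711 in CD8, against 739 in IM and 550 in TAM for beta. Gamma and delta genes were present at lower sums. The 4 genes named Tcrg summed to 3744 in CD8, against 38.6 in IM and 21.4 in TAM, and the 2 Trd genes to 207 in CD8, against 12.1 in IM and 2.26 in TAM. Near-identical segments cannot be separated here: 32 genes shared all 3 levels with another gene, 14 of them antigen receptor segments.

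The killing genes were split between those found in CD8 cells and those the myeloid cells held as well. Of 25 cytotoxic and effector genes 22 passed the level minimum, and 15 were CD8-high and 2 CD8-low, with a median log2 ratio of 4.51. Nkg7, a granule membrane protein, had 107200 in CD8, against 1457 in IM and 674 in TAM. Prf1, the pore-forming perforin, had 38321 in CD8, against 817 in IM and 176 in TAM. Ifng, interferon gamma, had 10716 in CD8, against 206 in IM and 129 in TAM. Nkg7, Prf1, Gzmb and Ifng were all higher in IM than in TAM, though far below CD8. Gzmk (log2 ratio 7.51) and Gzmf (7.60) had the highest ratios of the group. Gzma, granzyme A, stood apart at 2.69, with 4970 in CD8, against 1503 in IM and 36.1 in TAM. Gzmd, Gzme and Gzmg lay below the level minimum. Ccl5, a chemokine of activated T cells, had 55660 in CD8, against 8140 in IM and 36414 in TAM (log2 ratio 1.32). Tnf was CD8-low, with 1756 in CD8, against 43739 in IM and 53995 in TAM (log2 ratio -4.80). The lysosomal membrane protein gene Lamp1 was CD8-low too (-3.02).

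Inhibitory receptors and other genes of chronically stimulated T cells were high as a group. Of 17 genes, 13 were CD8-high and 0 CD8-low, with a median log2 ratio of 4.94. This list also held genes that are not inhibitory receptors, among them Tox, Cxcr6 (7.26), Rgs16 (7.19) and Nr4a2 (1.71). Tigit had a ratio of 7.37, Ctla4 7.18, Klrc1 (NKG2A) 6.72 and Cd160 5.92. Tox, a transcription factor needed for exhausted T cells to form, had 8051 in CD8, against 50.0 in IM and 49.0 in TAM (log2 ratio 7.35). Lag3 had 4735 in CD8, against 62.4 in IM and 245 in TAM (4.94). Havcr2, which encodes Tim-3 and is also found on myeloid cells, had 11605 in CD8, against 1254 in IM and 1453 in TAM (3.10). Entpd1 (CD39) lay at -0.40 and Cd244 (2B4) at 0.81, both within 4-fold of the myeloid mean. Cd244 had 2858 in CD8, against 2753 in IM and 499 in TAM.

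Costimulatory receptors gave a like picture, with 12 of 15 CD8-high and a median log2 ratio of 5.65. Cd28, the receptor for B7 molecules, had 12554 in CD8, against 110 in IM and 89.5 in TAM (log2 ratio 6.98). Icos had a ratio of 6.86, Cd27 5.75 and Tnfrsf9 (4-1BB) 5.04. Tnfrsf1b (0.62), Slamf6 (0.31) and Tnfsf14 (-0.61) lay near the median of all genes or below it.

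**Figure D3:**
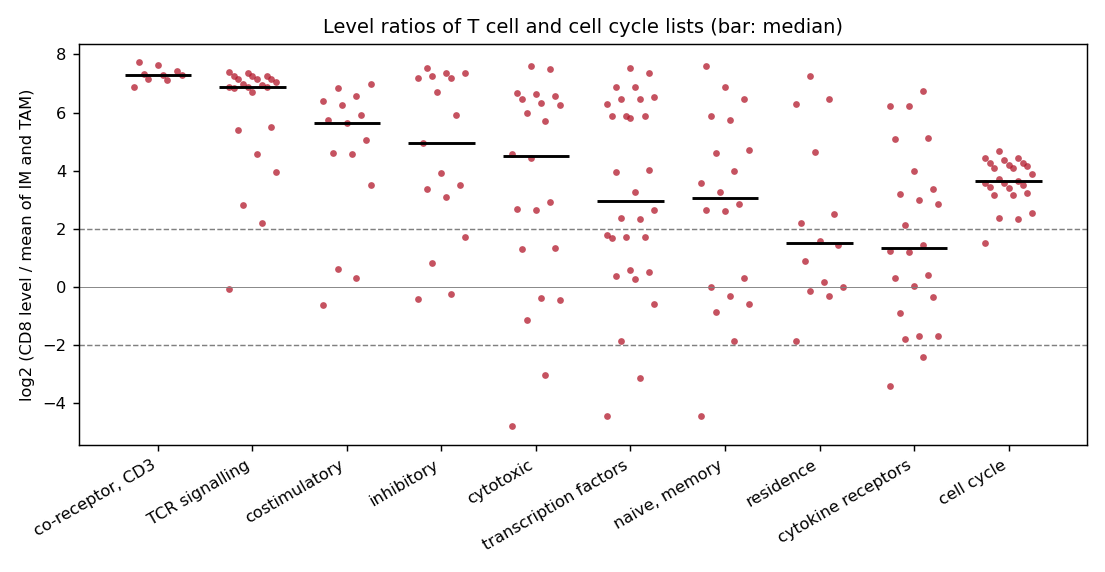
Log2 ratio of the CD8 level over the mean of IM and TAM for each member of 10 T cell and cell cycle lists, 1 point per gene, with bars at list medians and dashed lines at 2 and -2. Receptor complex genes cluster near 7, cell cycle genes between 1.51 and 4.67, and transcription factor, naive or memory and cytokine receptor genes span from below -2 to above 6.

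Transcription factors of T cells ranged from -4.43 to 7.52 in their log2 ratios. Of 30 genes, 18 were CD8-high and 2 CD8-low, with a median log2 ratio of 2.96. Bcl11b, which keeps T cell identity, had the highest ratio (7.52), with 11741 in CD8, against 71.0 in IM and 56.8 in TAM. Tbx21 (T-bet), which drives interferon gamma and effector genes, had 17687 in CD8, against 478 in IM and 123 in TAM (5.88). Its relative Eomes had a ratio of 5.80, and Ets1 5.90. Runx3, a repressor of Cd4 in CD8 T cells, had 7996 in CD8, against 2902 in IM and 2113 in TAM (1.67). Zeb2 (-3.14) and Id3 (-4.43), which T cells also use, were CD8-low.

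Genes of naive and memory T cells were measurable beside the effector genes. Of 20 genes, 13 were CD8-high and 1, Id3, was CD8-low, with a median log2 ratio of 3.06. Tcf7, which encodes TCF-1 of naive, memory and stem-like cells, had 6526 in CD8, against 69.7 in IM and 76.8 in TAM (6.48). Lef1 had a ratio of 6.88, Ccr7 4.00 and Il7r 2.84. Cd44, an adhesion receptor of memory and effector cells, lay at -0.86. Per kilobase of exon, the CD8 level was 2486 for Tcf7, against 64102 for Gzmb. Pooled levels cannot show whether 1 cell carried both.

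Cytokine and chemokine receptors were mixed. Of 24 genes, 11 were CD8-high and 2 CD8-low, with a median log2 ratio of 1.34. Il2rb, the IL-2 receptor beta chain, led with 79825 in CD8, against 1034 in IM and 448 in TAM (6.75). Both chains of the IL-12 receptor passed the minimum. Il12rb2, the chain that recruits Stat4, had 1148 in CD8, against 192 in IM and 59.3 in TAM (3.19), while Il12rb1 had 3999 in CD8, against 2091 in IM and 4420 in TAM (0.30). Ccr2, the monocyte chemokine receptor, was CD8-low (-3.42). Of 14 genes linked to residence in tissue, 6 were CD8-high, with a median of 1.52. Cxcr6 (7.26) and Itgae (CD103, 4.65) were among them, Itga1 (2.19) lay just above the threshold, and Cd69 had 1.44.

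Cell cycle genes had a lower median than genes of the T cell receptor complex. Of 25 genes 24 were CD8-high, with a median log2 ratio of 3.65 and a range from 1.51 to 4.67. Mki67, a marker of cycling cells, had 9536 in CD8, against 1041 in IM and 2712 in TAM (2.35). Top2a, a topoisomerase of dividing cells, had 14174 in CD8, against 553 in IM and 1009 in TAM (4.18). Pcna, a DNA replication clamp, had the lowest ratio (1.51). All of these 3 were lower in IM than in TAM.

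The highest ratios of named genes belonged to genes of low level, where the myeloid levels were near 0 and the ratio is unstable. Sv2b, a synaptic vesicle protein, had 400 in CD8, against 0.148 in IM and 0.388 in TAM (10.54). The authors' deposited table gives it no p, which DESeq2 withholds where 1 library is extreme. Rimkla had 55.7 in CD8, against 0.0973 in IM and a level listed at 0 in TAM (10.16). Tram1l1 had 108 in CD8, against 0.467 in IM and a level listed at 0 in TAM (8.86). Other genes among the highest 25 ratios had higher CD8 levels. Glp1r, the receptor for the gut hormone GLP-1, had 519 in CD8, against 1.95 in IM and 1.91 in TAM (8.07). Dtx1, a Notch target in lymphocytes, had 1014 in CD8, against 4.22 in IM and 3.83 in TAM (7.98). Slc17a6, a vesicular glutamate transporter of neurons, had 501 in CD8, against 2.53 in IM and 1.89 in TAM (7.82). Rgs8, a regulator of G protein signalling, had 1409 in CD8, against 6.55 in IM and 8.31 in TAM (7.57). Smyd1, a methyltransferase known from heart and skeletal muscle, had 842 in CD8, against 4.15 in IM and 3.74 in TAM (7.74). It lies on chromosome 6, 71213940 to 71322233, on the minus strand. Cd8b1 lies beside it at 71322788 to 71337494 on the plus strand, so their starts are adjacent and their ends point apart. The library kit did not mark strand, and whether reads from a gene add to its neighbour's level was not tested. Exons of Sv2b, Rimkla, Gzmf, Rgs8, Tfcp2l1 and C2cd4b overlap those of another annotated gene, whose reads cannot be told apart without strand. The other named genes among the 25 were Faxc, Tfcp2l1, C2cd4b, Syde2, Fam71b, Tdrp, Clgn, Dapl1, Ppp2r2c, Lcn4 and Ggt1, with ratios from 7.54 to 8.39.

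A pair of gene families on chromosome 6, picked after their values were seen, were often CD8-high. All 9 genes with Gimap names, GTPases of lymphocyte survival and the antisense transcript Gimap1os, were CD8-high, with log2 ratios from 5.48 to 6.94. Gimap4 had 32008 in CD8, against 452 in IM and 243 in TAM. Gimap1 and its antisense transcript Gimap1os overlap, so their reads cannot be told apart without strand. Of 17 Klr genes, lectin-like receptors of NK and T cells, 11 were CD8-high. The share over all genes kept was 14.8%. Klrd1 (CD94) had 14225 in CD8, against 259 in IM and 78.0 in TAM, while Klra2 had 98.2 in CD8, against 8107 in IM and 7618 in TAM. By chromosome, the share of kept genes that were CD8-high was highest on chromosomes 14 (30.95%) and 6 (23.05%), which hold the alpha and beta receptor loci.

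Markers of other lymphocytes ranged from below the level minimum to high levels, the highest belonging to genes that CD8 cells also express, such as Nkg7 and Ctla4. Of 12 CD4 and regulatory T cell genes 11 passed the minimum and 9 were CD8-high (median log2 ratio 4.60), several of which activated CD8 cells also express. Cd4 itself had 312 in CD8, against 44.98 in IM and 176 in TAM (1.501), and Foxp3, which defines regulatory T cells, had 136 in CD8, against 5.04 in IM and 6.75 in TAM (4.53). Per kilobase, the CD8 level was 77.4 for Cd4 and 29.7 for Foxp3, against 12168 for Cd8a. Of 14 NK cell genes 10 passed and 7 were CD8-high (median 3.22). Ncr1, the NK receptor NKp46, lay below the minimum, with 15.2 in CD8, against 215 in IM and 5.07 in TAM. Klrb1c (NK1.1) had 37.8 in CD8, against 121 in IM and 5.46 in TAM. Both defining NK genes were therefore highest in IM. Of 14 B and plasma cell genes 13 passed and 9 were CD8-high (median 2.95). Ighm, the constant segment of IgM, had 7692 in CD8, against 4063 in IM and 2635 in TAM (1.20), and Igkc, that of the kappa light chain, had 1983 in CD8, against 334 in IM and 163 in TAM (2.997). Of 10 gamma delta T cell genes 9 were in the tables, 5 passed and 4 were CD8-high (median 5.40). Trdc, the delta constant segment, had 53.3 in CD8, against 10.9 in IM and 1.58 in TAM (3.09). The part that such cells play in other ratios was not tested.

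Dendritic cell genes were of both kinds. CD8 alpha is also carried by some mouse dendritic cells, and the gate named no T cell marker. Of 12 plasmacytoid dendritic cell genes, 7 were CD8-high and 2 CD8-low (median log2 ratio 2.44). Siglech, a surface lectin of these cells, had 1300 in CD8, against 24.6 in IM and 13.7 in TAM (6.08). Ly6d (5.04), Ccr9 (4.70), Pacsin1 (4.24) and the transcription factor Spib (4.09) were CD8-high with it. The log2 ratios of this list ran down to -5.54, and its summed level was 32974 in CD8, against 58213 in IM and 71179 in TAM. Of 19 conventional dendritic cell genes 18 passed, 2 were CD8-high and 10 CD8-low (median -2.88). The 2 were Xcr1, the chemokine receptor of cross-presenting cells, with 886 in CD8, against 88.9 in IM and 104 in TAM (3.20), and Flt3, with 407 in CD8, against 138 in IM and 8.73 in TAM (2.48). Clec9a, another marker of cross-presenting cells, had 91.0 in CD8, against 144 in IM and 371 in TAM (-1.50). How much of the CD8 libraries' RNA came from dendritic cells was not tested.

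**Figure D4:**
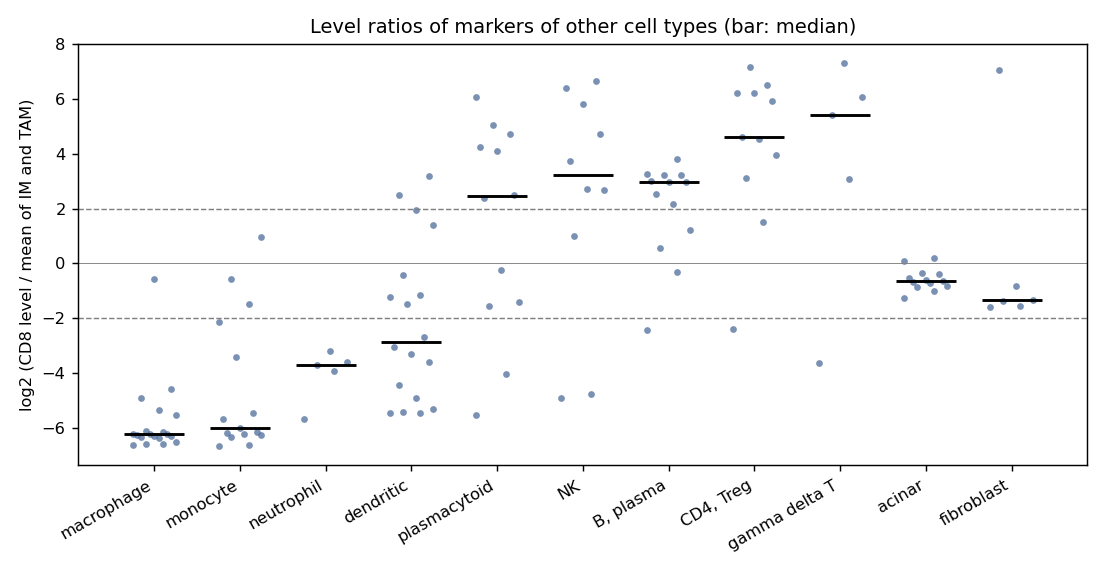
Log2 ratio of the CD8 level over the mean of IM and TAM for markers of 11 other cell types, 1 point per gene with a CD8 level of at least 50, bars at list medians. Macrophage and monocyte markers lie mostly near -6, acinar markers near 0, and lymphocyte and plasmacytoid markers mostly above 2.

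Macrophage and monocyte genes were the lowest in CD8, but not at 0. Of 20 macrophage genes 19 passed the minimum, and 18 were CD8-low and 0 CD8-high, with a median log2 ratio of -6.23. Their summed level was 50879 in CD8, against 1326100 in IM and 2223100 in TAM, and the median gene stood at 1.33% of the myeloid mean. Csf1r, the receptor for the macrophage growth factor, had 620 in CD8, against 59617 in IM and 59787 in TAM (-6.59). Lyz2, a lysozyme of myeloid cells, had 8113 in CD8, against 680860 in IM and 567920 in TAM (-6.27). Apoe had 5064 in CD8, against 96345 in IM and 664500 in TAM (-6.23). None of the 20 genes was listed at 0 in CD8. Ctsd, a lysosomal protease, was the exception among those kept, at -0.59. Of 15 monocyte genes 12 were CD8-low (median -6.00), and the median gene stood at 1.57% of the myeloid mean. Ly6c2, which activated CD8 cells also express, had 16630 in CD8, against 47504 in IM and 2287 in TAM (-0.58). Among the 10 lowest ratios were those of Gdf15 (-6.88), Siglec1 (-6.80), Cxcl1 (-6.73), Chil3 (-6.67), Cd14 (-6.62), Csf1r, Mrc1 (-6.59), Ccl7 (-6.56) and Ccl2 (-6.54). The 18 CD8-low macrophage genes lay between -6.62 and -4.58. Cd74, the class II invariant chain, had 15064 in CD8, against 441890 in IM and 855050 in TAM (-5.43). What part myeloid RNA in the CD8 libraries plays in these levels was not tested.

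The reverse held in the myeloid libraries. The median co-receptor and receptor complex gene stood at 0.656% of its CD8 level in IM and 0.584% in TAM. Cd8a stood at 0.485% in IM and 0.517% in TAM, and Cd3d at 0.670% in IM and 0.752% in TAM. These levels are the denominator of the ratio, so a gene near the median of the group had a log2 ratio near 7.30. Some killer cell genes stood higher in IM than in TAM. Gzma stood at 30.2% of its CD8 level in IM and 0.726% in TAM, and Prf1 at 2.13% in IM and 0.460% in TAM. Others went the other way, with Gzmk at 0.516% in IM and 0.585% in TAM, and Ccl5 at 14.6% in IM and 65.4% in TAM. Among CD8-high genes, 108 were at least 4-fold higher in IM than in TAM and 55 at least 4-fold higher in TAM than in IM.

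Early response and heat shock genes, which can rise during tissue dissociation, were high in all 3 populations and lower in CD8. Of 16 such genes 9 were CD8-low and 0 CD8-high, with a median log2 ratio of -2.37. Fos had 9227 in CD8, against 178190 in IM and 175680 in TAM (-4.26). Hspa1b had 171060 in CD8, against 789580 in IM and 560260 in TAM (-1.98). It was still among the 10 highest CD8 levels of named genes that are not mitochondrially encoded. By contrast 17 of 18 genes shared by leukocytes lay within 4-fold, with a median of 0.30 that turned to -0.25 under median-of-ratios scaling. Ptprc (CD45) had 61785 in CD8, against 36080 in IM and 23794 in TAM (1.05). The 10 highest CD8 levels were taken without regard to gene length, leaving out mitochondrially encoded genes, predicted genes, pseudogenes and antigen receptor genes. They included those of Actb, Tmsb4x, Lars2, Ubb, H2-D1, Hspa1b, Actg1, H2-K1 and Eef1a1, with ratios from -1.98 to 1.04.

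Treatment effects among the CD8-high genes were read from the authors' deposited tables, 1 for each treated CD8 group against the same unirradiated CD8 group. Their fold changes are shrunken log2 values, and a gene was called when its adjusted p (DESeq2 Wald test) was below 0.05. After SBRT, 24 of 2073 CD8-high genes with an adjusted p were higher (1.16%) and 10 lower (0.482%), while over all genes the shares were 0.306% higher and 0.165% lower. After IL-12 alone, 104 of 2019 were higher (5.15%) and 31 lower (1.535%), against 1.48% and 1.04% of all genes. After the combination, 313 of 2073 were higher (15.1%) and 104 lower (5.02%), against 4.51% and 2.96% of all genes. Shares of called genes were thus above those over all genes in each table, and whether they differed was not tested. At a log2 ratio of at least 6, 10 of 412 genes were higher after the combination (2.43%) and 27 lower (6.55%), so here the larger share was that of decreases. The 3 tables share their unirradiated libraries, and the treated libraries also enter the pooled CD8 level behind the ratio.

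Cell cycle genes were the largest listed group among the increases. In the authors' deposited tables, 24 of 25 rose after the combination, 17 after IL-12 and 1, Bub1, after SBRT, and 0 fell. Over all genes the shares called higher were 4.51%, 1.48% and 0.306%, in the same order. The median log2 fold change of the list was 0.25 after SBRT, 0.56 after IL-12 and 0.77 after the combination, against medians over all genes kept of -0.0049, -0.0069 and -0.028, all as log2 fold changes in the authors' deposited tables. The ribonucleotide reductase subunit Rrm2 rose most in the list after the combination (1.13 ± 0.14 SE, adjusted p = 3.6e-12, in the authors' deposited table), and had 0.57 after IL-12 (adjusted p = 0.0090) and 0.40 after SBRT (adjusted p = 0.20). Mki67 rose by 0.86 ± 0.12 after the combination (adjusted p = 1.9e-10 in the authors' deposited table). The CD8-high genes with the smallest adjusted p among the increases after SBRT in the authors' deposited table were Pkmyt1, a kinase that inhibits Cdk1 (0.59, adjusted p = 0.0022), the primase Prim1 (0.56, adjusted p = 0.0053) and the thymidine kinase Tk1 (0.71, adjusted p = 0.0068). Exons of Pkmyt1 and Tk1 overlap those of Paqr4 and Afmid. Whether one treatment's effect differed from another's was not tested here.

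**Figure D5:**
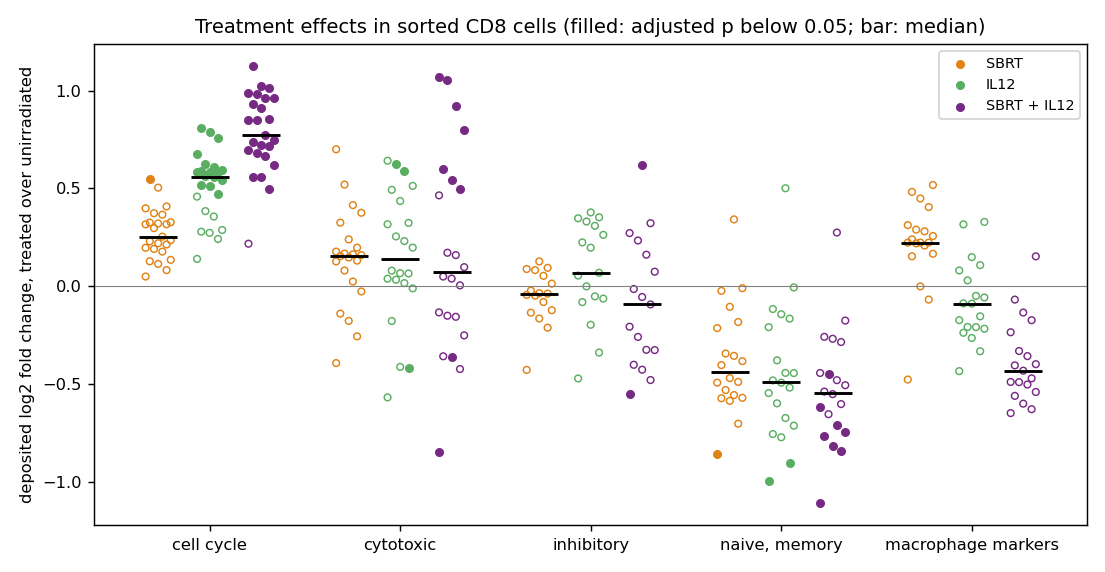
Deposited log2 fold changes of treated over unirradiated CD8 cells for the members of 5 lists after SBRT, IL-12 and SBRT + IL-12, filled where the deposited adjusted p was below 0.05, bars at list medians. Cell cycle genes lie above 0 after each treatment, naive and memory genes mostly below 0, and no macrophage marker is filled.

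Receptor genes that define the cells were not called in any of the 3 authors' deposited tables. Of the 9 co-receptor and CD3 genes 0 were called, with medians of -0.20 after SBRT, 0.00 after IL-12 and -0.18 after the combination, and of the 23 signalling genes 0 were called either. Over all genes 0.306% were called higher and 0.165% lower after SBRT, and 1.48% and 1.04% after IL-12. After the combination these shares were 4.51% and 2.96%, so 0 calls among so few genes lies near the share over all genes. At an unadjusted p below 0.05, 2 of the 9 were lower after SBRT and 0 after the others, and of the signalling genes 2 were higher and 2 lower after IL-12, and 1 higher and 3 lower after the combination. Of 22 cytotoxic and effector genes, 7 rose and 2 fell after the combination in the authors' deposited table. In the authors' deposited table Gzmb rose by 1.05 ± 0.16 (adjusted p = 4.5e-08), Gzma by 1.07 ± 0.21 (adjusted p = 5.4e-05) and Gzmf by 0.92 ± 0.24 (adjusted p = 0.0032), and Ifng (0.80), Prf1 (0.60), Gzmk (0.54) and Serpinb9 (0.50) rose with them. In the authors' deposited table Xcl1 (-0.85, adjusted p = 0.0018) and Lamp1 (-0.36, adjusted p = 0.030) fell. After IL-12 alone Gzmb (0.59, adjusted p = 0.020) and Gzmk (0.62, adjusted p = 0.039) rose and Lamp1 fell, and after SBRT 0 were called (4 higher and 2 lower at an unadjusted p below 0.05), in the authors' deposited tables. In the inhibitory list Pdcd1 was not called (-0.21, adjusted p = 0.52 after the combination in the authors' deposited table), Klrg1, a marker of terminal effector cells, rose (0.62, adjusted p = 0.022) and Tigit fell (-0.55, adjusted p = 0.0062).

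Naive and memory genes made up the largest listed group of decreases after the combination. In the authors' deposited tables, 8 of 20 fell after the combination, 2 after IL-12 and 1 after SBRT, and 0 rose. Over all genes the shares called lower were 2.96%, 1.04% and 0.165%, in the same order. Bach2, a repressor of effector differentiation, fell by 1.11 ± 0.21 after the combination (adjusted p = 9.5e-06) and by 0.99 ± 0.21 after IL-12 (adjusted p = 5.7e-04) in the authors' deposited tables. Il7r, the receptor for the survival cytokine IL-7, fell in all 3 authors' deposited tables, with -0.86 after SBRT, -0.90 after IL-12 and -0.71 after the combination. Tcf7 fell after the combination (-0.84 ± 0.25, adjusted p = 0.014), with -0.70 after SBRT (adjusted p = 0.23) and -0.76 after IL-12 (adjusted p = 0.077) in the authors' deposited tables. Costimulatory Cd27 (-0.45), Crtam (-0.74), Slamf6 (-0.61) and Tnfsf14 (-0.81) also fell after the combination in the authors' deposited table. Il2ra, the high-affinity IL-2 receptor chain, rose there (1.04 ± 0.18, adjusted p = 1.8e-06), as did Il12rb1 (0.71 ± 0.16, adjusted p = 4.0e-04).

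Other CD8-high genes were among those with the smallest adjusted p. Serpine2, a protease inhibitor, rose by 1.43 ± 0.18 after the combination (adjusted p = 2.2e-12 in the authors' deposited table), and Tmie, whose exons overlap those of Als2cl, fell by 1.57 ± 0.22 (adjusted p = 1.2e-09). Il1rl1, the IL-33 receptor and a member of the CD4 and regulatory T cell list, rose after IL-12 (1.18 ± 0.22, adjusted p = 4.8e-05) and the combination (1.47 ± 0.22, adjusted p = 1.2e-08) in the authors' deposited tables. Aff3, with a log2 ratio of 6.29, fell after IL-12 (-0.98 ± 0.23, adjusted p = 0.0051) and the combination (-1.04 ± 0.23, adjusted p = 4.0e-04) in the authors' deposited tables. Sigirr, an inhibitory receptor of the IL-1 receptor family, fell after the combination (-0.47 ± 0.09, adjusted p = 9.8e-06 in the authors' deposited table).

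Some markers of other cells were called in the CD8 libraries. Of the 19 macrophage genes kept, 0 were called in any of the authors' deposited tables, with median log2 fold changes of 0.22 after SBRT (16 above 0), -0.09 after IL-12 (6 above 0) and -0.43 after the combination (1 above 0). At an unadjusted p below 0.05, 3 were higher and 1 lower after SBRT, 1 was higher after IL-12, and 10 were lower after the combination. Of 15 monocyte genes 1, Fn1, was called, lower after the combination (-0.78, adjusted p = 0.012 in the authors' deposited table). Over all genes the share called lower after the combination was 2.96%. The median of the macrophage list was thus lowest in the treatment in which that of the cell cycle list was highest, and its part in the calls was not tested. Of 5 endothelial genes kept, 3 fell after the combination in the authors' deposited table, Pecam1 (-0.72), Kdr (-0.60) and Eng (-0.74), and Pecam1 also fell after IL-12 (-0.72). Ighd (-0.70), Pf4 (-0.76), the acinar gene Clps (-0.37), the collagen gene Col1a2 (-0.76) and Pacsin1 (-0.50) fell after the combination in the authors' deposited table, and Kit (0.69) and Tcrg-C4 (0.74) rose. In the NK cell list Klrd1 fell (-0.40) and Gzma rose after the combination, and Klre1 rose after IL-12 (0.59), in the authors' deposited tables. Prss2, a pancreatic acinar protease, was higher after SBRT (1.09, adjusted p = 0.0068 in the authors' deposited table), and the B cell gene Cd79b was lower (-0.86, adjusted p = 0.030).

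The promoters of the genes kept were searched for all 7 motifs. RefSeq promoters were matched by symbol for 1152 of 2091 CD8-high genes, 165 of 420 genes with a log2 ratio of at least 6, and 8423 of 14127 genes kept. The Runx motif TGTGGT was in 16.1% of CD8-high promoters and 22.2% of those at a ratio of at least 6, against 13.02% of promoters of all genes kept and 16.8% of all mouse promoters in the table. The ETS motif GGAAGT was in 23.1% of CD8-high promoters and 25.7% at a ratio of at least 6, against 29.6% of genes kept and 23.8% of all. The T-box motif AGGTGT was in 13.1% of CD8-high promoters and 16.5% at a ratio of at least 6, against 10.7% of genes kept and 13.7% of all. The other motifs were in 10.1% (TGCGGT), 11.6% (CTTTGA), 2.99% (GAGGAAGT) and 8.70% (TATAAA) of CD8-high promoters, against 9.41%, 11.72%, 3.44% and 7.10% of genes kept and 6.45%, 16%, 3.20% and 13.6% of all promoters. The share with the TATA box was thus above that in genes kept and below that in all promoters. The shares with the Runx motif TGTGGT and with the T-box motif were thus both higher at a ratio of at least 6 than in each wider set. In CD8-low promoters they were 15.2% for TGTGGT, close to CD8-high promoters, and 9.55% for the T-box motif. The median promoter had 18 CpG pairs in CD8-high genes and 9 at a ratio of at least 6, against 21 in genes kept and 7 in all promoters. Cd8a had 3, Cd3e 8, Gzmb 2 and Pdcd1 5. These are descriptions of letters in a window and were not tested.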

How the data were processed

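Per the labels' protocols, RNA of sorted CD8, IM and TAM cells was sequenced on an Illumina HiSeq from TruSeq V2 libraries, a kit that keeps no strand. The submitters' processing notes name STAR 2.6.0c, Salmon, Subread, featureCounts, FastQC 0.11.8 and Trimmomatic 0.36, and build GRCm38, with no role or order. The annotation release, the version of the authors' DESeq2 and its design formula are not given in the sources used here. Values came from 9 tables that the authors deposited, per the file headers DESeq2 results, with 53735 gene names each, 3 per population. The normalised signal (baseMean) deposited by the authors is, per the file headers, a mean over libraries of scaled counts, and the 3 tables of 1 population held the same value for every gene. The log2 fold changes deposited by the authors are treated over unirradiated. The Wald statistic deposited by the authors was treated as a score, and its ratio to the fold change gave standard errors. The p-value and adjusted p-value deposited by the authors were used as they stand.

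Levels of IM and TAM were scaled to the CD8 sum, and log2 of the CD8 level over their mean was taken where the CD8 level was at least 50, with Python 3.11.15, pandas 2.3.3 and numpy 2.4.6. This ratio has no replicate and no test. Its approximate standard error came from the spread per library that the standard errors imply (median 0.0762), and it is too small for sparse genes, whose fold changes are shrunken. Levels per kilobase used merged exons of GENCODE M21, a GRCm38 annotation that matched 11166 of the 14127 genes and need not be the one used for counting. The genes and the 29 lists were chosen with earlier results of these data known. Scart1 was not in the tables, and a few genes that the naming rule picks are not reported here.

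Named genes were the 5 markers, the 25 highest and 10 lowest ratios, the 10 highest levels, the genes next to the level minimum, up to 6 members of highest level and 3 of lowest ratio per list, and up to 5 CD8-high genes each way per treatment table with the smallest adjusted p. Predicted genes, pseudogenes and antigen receptor genes were left out, and BAC clone names were left out after their values were seen. Mitochondrially encoded genes were left out of the 10 highest levels. Other list members named were chosen after their values were seen. The alternatives changed the scaling, level minimum, pseudocount, the way IM and TAM were averaged, and the adjusted p threshold. The scripts were tested on simulated data.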

Additional observations from a re-analysis of the deposited data

How the results depend on the processing

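The counts of genes depended most on the level minimum. With no minimum 4646 genes were CD8-high and 3834 CD8-low, many of them sparse, and with a minimum of 200 the CD8-low count was 469. At an adjusted p below 0.01 the treatment calls among CD8-high genes were 3 higher and 2 lower after SBRT, 38 and 13 after IL-12, and 54 lower after the combination. With CD8-high set at a log2 ratio of at least 3, 206 genes were higher after the combination. No named gene at least 4-fold higher or lower changed sign under any alternative run. Under median-of-ratios scaling 256 named ratios shifted by at least their approximate spread per library, or 1 where that is missing, and 2 did not. With the higher of IM and TAM 139 shifted and 119 did not, and 1811 genes were CD8-high. With levels calculated back to the unirradiated group 77 shifted and 179 did not. List medians near 0 turned under median-of-ratios scaling for shared leukocyte genes (-0.25) and for endothelial markers (-0.08, against 0.46 with equal sums). Of the 25 highest named ratios, 25 were shared under that scaling, 21 with levels calculated back to the unirradiated group, 17 at a minimum of 200, 16 with a pseudocount of 1, 14 at a minimum of 20 and 10 with no minimum. In the alternatives chosen after seeing the data, 2073 genes were CD8-high without genes lacking a deposited p, and 1563 when counting named genes alone. No paired analysis was possible because the tables hold no value per library and the ratio comes from no test. For the same reason no library could be left out, and the depth behind each value is unknown.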

Other observations

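Genes that every cell uses also differed in their pooled levels. Of 82 ribosomal protein genes kept (names starting Rps or Rpl, without S6 kinases and Rps19bp1, chosen after their values were seen), 0 were CD8-high and 1 was CD8-low, with a median log2 ratio of 1.07. The 13 mitochondrially encoded genes had ratios from 0.71 to 1.01, with a median of 0.83, and summed to 920900 in CD8, against 447680 in IM and 599080 in TAM. Both medians stood above that of all genes kept (0.68) and fell with it under median-of-ratios scaling, to 0.28 for the mitochondrially encoded genes. Pancreatic acinar genes were at like levels in CD8 and IM and higher in TAM. The median gene stood at 104% of its CD8 level in IM and 218% in TAM. Of 16 genes 13 passed the minimum and 0 were CD8-high or CD8-low, with a median of -0.66 and a summed level of 2231 in CD8, against 2041 in IM and 4706 in TAM. Of 14 neutrophil genes 5 passed and 5 were CD8-low (median -3.73). Of 13 fibroblast genes 6 passed and 1, Thy1, which T cells also express, was CD8-high (median -1.34). Of 12 epithelial and tumour genes 5 passed, with 2 CD8-high and 1 CD8-low (median 1.68). Of 11 endothelial genes 5 passed, with 2 CD8-high and 1 CD8-low, and of 11 erythroid and platelet genes 6 passed, with 1, Pf4, CD8-low. Of 10 mast cell and basophil genes 2 passed.

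Families of myeloid cells, also chosen after their values were seen, lay at the other end. All 5 Fcgr genes, receptors for antibody Fc parts, were CD8-low, with a median log2 ratio of -6.10. Of 11 cathepsin genes 6 were CD8-low and 1 was CD8-high. That gene was Ctsw, a cathepsin of killer lymphocytes, with 28488 in CD8, against 444 in IM and 155 in TAM (6.57).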
